A study of Mus musculus with 31 samples.

Results

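Peak lists of the cohesin loader subunit NIPBL and of the cohesin subunit Rad21 were set against each other in stimulated CH12F3 cells: 2 NIPBL and 4 Rad21 libraries, chosen by their sample titles, out of 31 samples in the series, 26 of which have a peak list. CH12F3 is a murine B cell lymphoma line that can switch its antibody class in culture, and the series addresses how cohesin-driven loop extrusion takes part in antibody class switching. All 6 libraries came from C57BL/6 cells that lack AID, the deaminase that starts class switching, titled CH12F3NCdel and kept for 24 h with anti-CD40, IL4 and TGF-β. The groups used for comparison below are AID-deficient C57BL/6 cells too: unstimulated CH12F3 (2 NIPBL and 3 Rad21 libraries), primary mature splenic B cells without stimulation (3 and 3) or kept 48 h with anti-CD40 and IL4 (3 and 3), and 3 Rad21 libraries of CH12F3 cells titled i3CBEs, stimulated like the 6. NIPBL was precipitated with the Bethyl antibody A301-779A from cells of passage 8 to 10, and Rad21 with the Abcam antibody ab992 from cells whose passage range starts at 8 and is given as ending at 12, 14, 16 and 17 in replicates 1 to 4. For the Rad21 libraries 1 label field names splenic B cells, whereas title and source name CH12F3, which were followed. In these 4 lists the Y chromosome held 0.000559% to 0.00374% of peaks, below the 0.0103% to 0.0404% of the 6 stimulated splenic lists. Nothing in the labels tells whether the replicates were grown apart, so the spread between libraries may be technical.

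Cohesin is a ring-shaped complex that holds DNA in loops, and Rad21 is the subunit that closes the ring. NIPBL, with its partner MAU2, helps cohesin onto chromatin and keeps its motor active while loops grow. In mammalian cells cohesin gathers where CTCF halts extrusion, while NIPBL is most often mapped at active promoters and enhancers.

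The 2 antibodies gave lists of very different size. NIPBL replicates 1 and 2 had 1321413 and 1082979 deposited peaks, which covered 219 and 161 Mb, or 8.28% and 6.11% of the span of the chromosomes. Rad21 replicates 1 to 4 had 95464, 178792, 271662 and 106966 peaks covering 29.0, 31.0, 49.4 and 20.5 Mb. All Rad21 lists were shorter than both NIPBL lists (exact two-sided permutation test over libraries, p = 0.0667, adjusted p = 0.102 over 23 such tests). That p is the smallest that 2 against 4 libraries can give, so no comparison of this kind could pass 0.05. The peak names of NIPBL replicate 1 give no control library, while those of the other 5 lists give the same control, and the part of this in the NIPBL lists was not tested. The lists carry no read counts, so sequencing depth is unknown. To set lists of such different length side by side, 20000 peaks were kept from each, the "top peaks", with the highest -log10 p.

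Top peaks of the loader were mostly very short. Their median width was 68 bp in NIPBL replicate 1 and 51 bp in replicate 2, and 44.7% and 50.3% of them were exactly 51 bp, the smallest width in these lists. Rad21 top peaks had median widths of 423, 346, 444 and 300 bp, and at most 0.34% were 51 bp wide. The groups did not overlap (means 59.5 ± 12.0 bp, SD, n = 2, against 378 ± 67.1 bp, n = 4; exact p = 0.0667). NIPBL also had the larger share of broad peaks: 14.0% and 7.19% were 1 kb or wider, against 5.04%, 2.22%, 5.97% and 1.48% for Rad21. The loader list was thus made of many very short and fewer broad peaks, and the cohesin list of peaks of intermediate width.

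Short loader peaks did not recur between libraries, and broad ones did. Of the NIPBL top peaks of 51 bp, 0.134% in replicate 1 and 0.109% in replicate 2 were overlapped by a top peak of the other NIPBL library. Of those of 1 kb or wider, 57.1% and 86.4% were. Against cohesin the 51 bp peaks were low too: 0.447% and 0.475% were overlapped by Rad21, as a mean over the 4 Rad21 libraries. There the share did not keep rising with width. It was 17.4% in both replicates for peaks from 200 bp to under 500 bp, and 13.4% and 14.0% for the broad peaks. A single shared base counts as overlap, which favours wider peaks, and the part of this in these shares was not tested. Because broad NIPBL peaks recurred, a ranking that gives weight to width was run beside the other. It kept the 20000 peaks with the largest width times (fold enrichment - 1), called area-ranked peaks here. Fold enrichment is the authors' value for a peak within its own list. With this ranking NIPBL peaks were the wider ones, at medians of 1151 and 938 bp against 503, 429, 573 and 374 bp, which the ranking itself favours. Their median spacing fell below that of Rad21 (20477 ± 776 bp against 41525 ± 1110 bp), where with top peaks it lay above (72601 ± 990 bp against 45589 ± 1140 bp). The order of the antibodies in width and spacing thus depended on which peaks were kept. It also turned when top peaks were taken among those of 200 bp or more, at mean median widths of 486 ± 74.95 bp for NIPBL and 387 ± 60.1 bp for Rad21, whose values overlapped, and spacings of 34196 and 45101 bp.

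**Figure D1:**
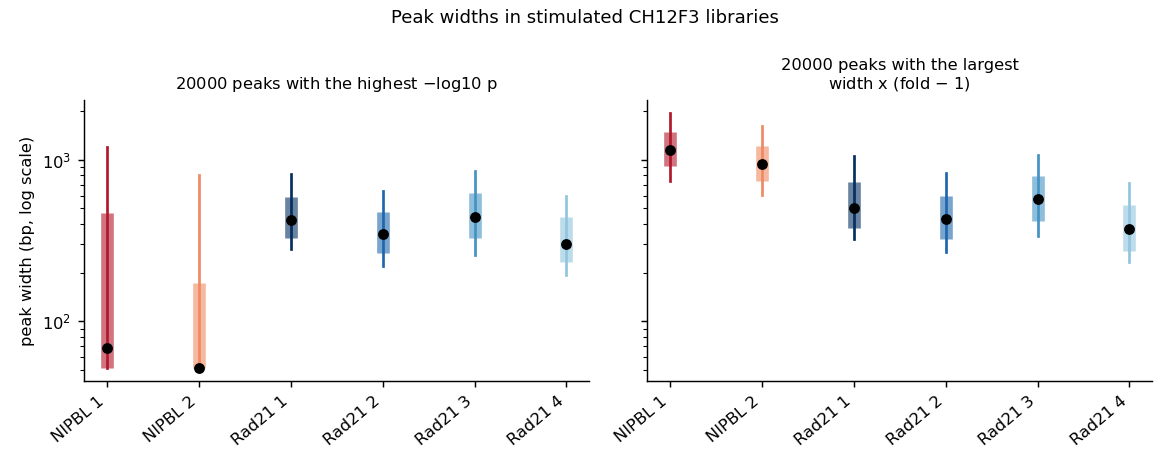
Peak width in bp (log axis) for each library of stimulated CH12F3; the dot is the median, the thick bar spans the 25th to 75th percentile and the thin line the 10th to 90th. With top peaks (left) both NIPBL medians, 68 and 51 bp, lie below every Rad21 median; with area-ranked peaks (right) both lie above.

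Loader and cohesin top peaks overlapped in few cases, while the lists cover little of the span. Top peaks covered 6.42 ± 1.82 Mb in NIPBL (SD, n = 2) and 9.27 ± 1.59 Mb in Rad21 (n = 4). Both means lie below the 20.5 Mb of the full Rad21 replicate 4 list, which made up 0.778% of the span. In NIPBL replicates 1 and 2, 5.25% and 4.24% of top peaks were overlapped by 1 base or more by a Rad21 top peak. In Rad21 replicates 1 to 4, 4.87%, 4.98%, 4.45% and 4.60% were overlapped by a NIPBL top peak. These shares lay above the covered share of the span. An overlap counts once 1 base is met, so the 2 measures are not alike. Within an antibody, 86.3 ± 1.22% (SD, n = 4) of Rad21 peaks but 14.6% of NIPBL peaks were overlapped by another library of the same antibody. Cohesin top peaks thus recurred in most cases between libraries and loader top peaks in few. Under the area ranking the overlap between antibodies was 16.3 ± 1.09% of NIPBL (n = 2) and 16.3 ± 2.25% of Rad21 peaks (n = 4), the overlap within NIPBL 62.9%, and that within Rad21 80.2 ± 1.61%. So the share of shared peaks moved more than 3 times with the ranking, while under both it stayed under the overlap within either antibody. Area-ranked lists also covered more, 23.3 ± 3.32 Mb in NIPBL and 11.7 ± 2.15 Mb in Rad21. The part of covered length in the rise was not tested.

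**Figure D2:**
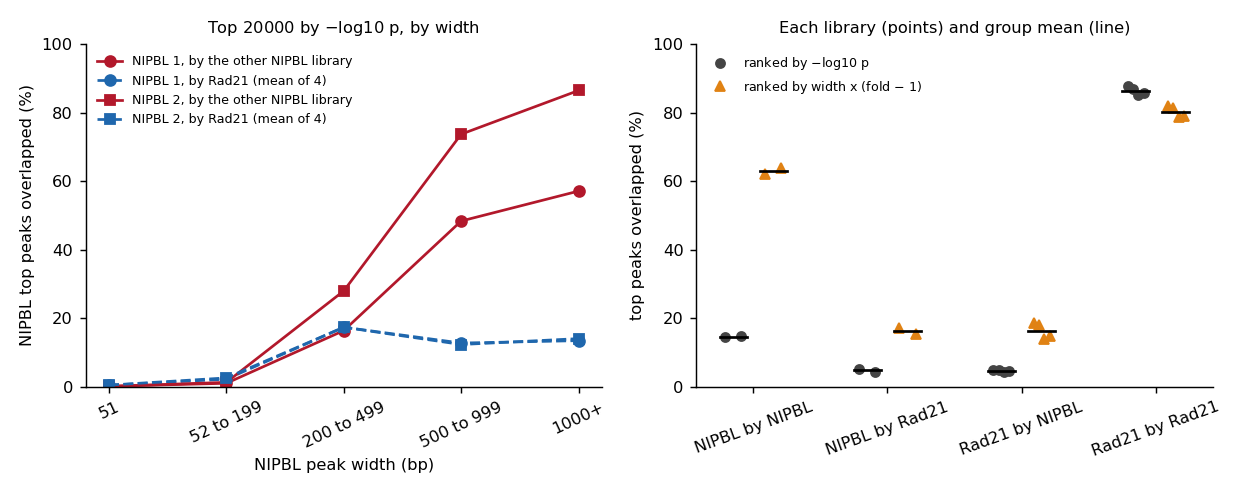
Left, share (%) of NIPBL top peaks overlapped by the other NIPBL library (red) or by Rad21 (blue, mean of 4 libraries), by peak width in bp. Right, share (%) of each library's peaks overlapped, for top peaks (circles) and area-ranked peaks (triangles); lines are group means, and the 4.74% of NIPBL top peaks overlapped by Rad21 rises to 16.3% with area-ranked peaks.

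Distances to the nearest peak of the other antibody were read over all peaks, overlapping ones included. The median distance from a NIPBL top peak to the nearest Rad21 top peak was 37617 bp in replicate 1 and 39282 bp in replicate 2. From Rad21 to NIPBL it was 29770 ± 369 bp (n = 4). Within 10 kb of a Rad21 top peak lay 22.9 ± 0.304% of NIPBL top peaks, and 12.8% of the chromosomes' span. In area-ranked lists the median NIPBL to Rad21 distance was 11242 ± 381 bp, and 47.5 ± 0.879% lay within 10 kb, against 12.4% of the span. Loader peaks, overlapping ones included, were thus nearer to cohesin peaks than the span as a whole, more so where broad peaks were kept.

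Merging the top peaks of the 6 libraries gave 60281 sites. A site was put in the shared class when both NIPBL libraries and at least 3 of 4 Rad21 libraries had a top peak there, in the cohesin-only class with at least 3 Rad21 and no NIPBL library, and in the loader-only class with both NIPBL and no Rad21 library. This gave 420 shared, 16801 cohesin-only and 2294 loader-only sites. A further 32813 sites, with a median width of 51 bp, rested on 1 NIPBL library alone. Of the cohesin-only sites 14034 were in all 4 Rad21 libraries, as were 335 of the shared sites. With area-ranked peaks there were 2032 shared, 13272 cohesin-only and 8566 loader-only sites, so the shared and loader-only counts rose by more than 3 times while the cohesin-only count stayed near. Without NIPBL replicate 1 or 2, so that 1 library defined the loader, loader-only sites numbered 18884 or 18605 and shared sites 830 or 992.

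The classes differed in width. Shared sites had a median of 1506 bp, loader-only sites 1164 bp and cohesin-only sites 587 bp, and 75.7% of shared sites were 1 kb or wider. These widths come from the peaks that define the classes and are given as a description. Across chromosomes, X held 0.48% of loader-only and 2.08% of cohesin-only sites while making up 6.31% of the span, and chromosome 11 held 10.8% and 7.49% against 4.61% of the span. A low share on X was also found in the area-ranked lists of both NIPBL libraries, at 0.855% and 0.89% of peaks, against 1.66%, 2.51%, 1.92% and 4.23% in Rad21 (exact p = 0.133, adjusted p = 0.17). The groups did not overlap there, whereas in top peaks they did (1.93 ± 0.237% and 2.23 ± 0.178%).

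At shared sites the peaks of loader and cohesin overlapped in large part, and seldom did the whole Rad21 peak lie inside the NIPBL peak. Taking the widest peak of each antibody per site, the 8 pairs of a NIPBL and a Rad21 library had median NIPBL widths of 766.5 to 967 bp and Rad21 widths of 449 to 771 bp. The median offset between their centres was 212.5 to 335 bp. In 56.7% to 76.8% of sites at least 50% of the Rad21 peak lay inside the NIPBL peak, and in 20.4% to 44.6% all of it did. NIPBL had the wider peak in 46.0% to 75.6% of sites. Among area-ranked peaks the offset was 358.75 to 469 bp and these shares were 54.7% to 76.5%, 21.1% to 49.3% and 65.3% to 89.2%.

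Rad21 peaks were broader at shared than at cohesin-only sites in each library. Median widths at shared sites were 765, 576.5, 640.5 and 445 bp in replicates 1 to 4, against 430, 351, 462 and 312 bp at cohesin-only sites. The mean difference was 218 ± 86.7 bp (SD, n = 4), above 0 in 4 of 4 libraries (exact two-sided sign-flip test, p = 0.125, the smallest that 4 libraries allow). Shared sites were chosen by overlap with NIPBL, and the part of peak width in that choice was not tested. The strength of these peaks depended on the ranking. As a percentile of fold enrichment within the list, the median Rad21 peak at shared sites stood 1.04 points above that at cohesin-only sites with top peaks (higher in 2 of 4 libraries) and 21.9 points below it with area-ranked peaks (lower in 4 of 4; exact p = 0.125).

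The strongest shared sites had top peaks in all libraries of the series. At 23 sites all 6 libraries had a fold enrichment of 20 or more, all in the shared class, and each had a top peak in all 20 other libraries. The highest, chromosome 2 at 98506303 to 98507499 (mm9), had a fold of 15501 and 11755 in NIPBL and of 32516, 36753, 24898 and 49867 in Rad21. Folds of this size were found with both antibodies, and whether they reflect binding of either protein was not tested. Of the 23 sites 7, on 4 chromosomes, reached 100 in every library. With area-ranked peaks 22 of 23 such sites were in the shared class and 16 had a peak in all 20 other libraries. Leaving the 23 out gave 397 shared sites. The widest shared site, chromosome 3 at 95111518 to 95168446, spanned 56929 bp with folds between 8.27 and 12.0.

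Most of the strongest separate sites had a weak peak of the other antibody. At the cohesin-only site with the highest mean percentile of fold, chromosome 4 at 148917216 to 148917685, Rad21 reached 60.3, 29.6, 31.9 and 37.0-fold, NIPBL replicate 1 had no deposited peak and replicate 2 had a peak of 4.95-fold. The next, chromosome 11 at 44399074 to 44400015, reached 56.1, 28.7, 31.6 and 32.3-fold in Rad21 with no deposited peak in either NIPBL list. The following 3 cohesin-only sites had peaks of 3.53 to 4.98-fold in both NIPBL lists. All 5 had a top peak in 12 of the 20 other libraries. The leading loader-only site, chromosome 19 at 4988913 to 4989375, reached 45.8 and 42.7-fold in NIPBL, with Rad21 peaks of 3.74 and 3.75-fold in replicates 1 and 4 and none in 2 and 3. Of the 5 leading loader-only sites the other 4 lay on chromosome 13, 2 of them within 20 kb of each other at 21826643 to 21827566 and 21841894 to 21842725, and these 4 had NIPBL folds between 25.3 and 35.2 and Rad21 folds of 4.87 or less. No annotation of mm9 was used here, so sites are named by position only.

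Weaker peaks of the other antibody were common at separate sites. At loader-only sites, which by definition hold no Rad21 top peak, 79.2%, 74.2%, 63.6% and 48.0% had a deposited Rad21 peak of any strength in replicates 1 to 4, with a median fold of 4.31, 3.81, 3.52 and 3.70. In 812 of 2294 sites (35.4%) all 4 Rad21 lists had one, and in 195 (8.5%) none did. The sites in 1 NIPBL library alone had a deposited Rad21 peak in 7.48%, 7.37%, 7.26% and 4.64%. Those sites were far narrower, and among sites of 500 bp or wider the difference was smaller: 6.93% of 2166 loader-only and 17.8% of 2379 such sites had none in any Rad21 list. At cohesin-only sites 71.2% and 63.6% had a NIPBL peak of any strength, and 3060 of 16801 (18.2%) had none in either. A site counts once any of its bases is met. These shares can therefore not be set against the 8.28% and 6.11% of the span that the lists cover. With area-ranked peaks 22.9% of loader-only and 17.4% of cohesin-only sites had none.

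Around the sites made from top peaks, the weaker peaks were centred on the sites in all libraries but Rad21 replicate 3. Over cohesin-only sites, NIPBL replicates 1 and 2 covered the central base in 36.4% and 29.4% of sites, and positions 9 to 10 kb away in 15.4% and 11.6%. Over loader-only sites, Rad21 replicates 1, 2 and 4 covered the centre in 32.6%, 24.4% and 11.2%, against 3.74%, 3.56% and 2.21% at 9 to 10 kb. Rad21 replicate 3 had a dip instead: it covered 11.9% of centres, 16.2% at 400 bp, 19.2% at 600 bp and 8.89% at 2 kb. With area-ranked sites the dip was deeper, at 3.42% of centres against 9.11% at 800 bp and 4.0% at 9 to 10 kb. Replicate 3 also had the longest Rad21 list, whose part in the dip was not tested. In that ranking replicate 1 was highest at the centre (12.3%), and replicates 2 and 4 were slightly lower at the centre (8.42% and 3.42%) than at 400 bp (8.76% and 4.11%).

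**Figure D3:**
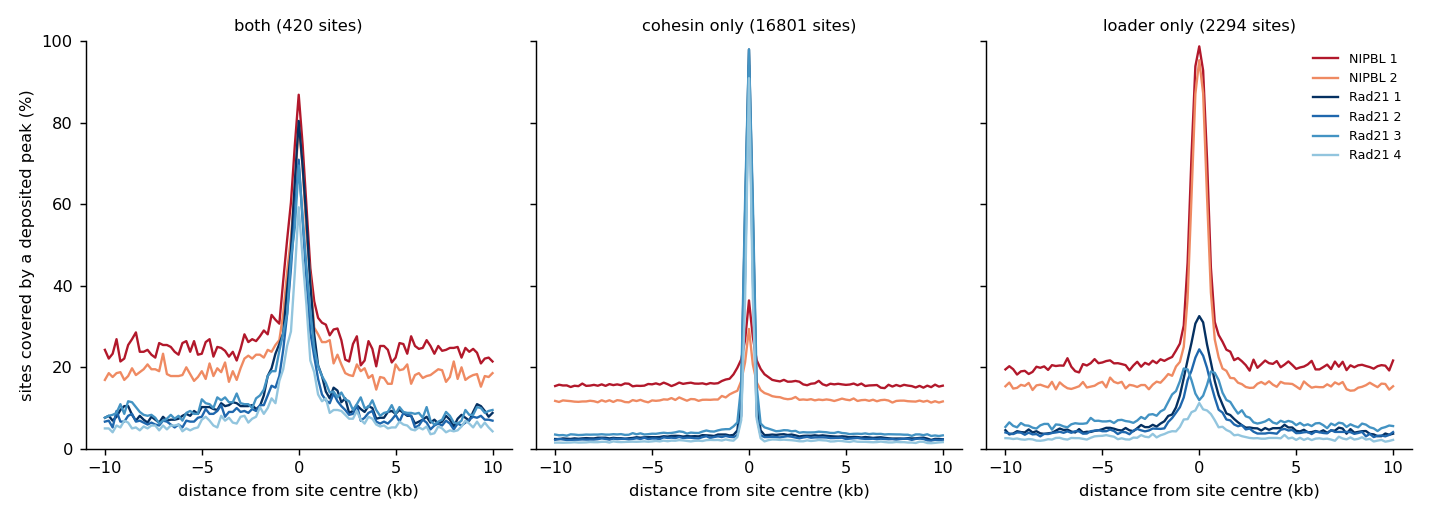
Share (%) of sites of each class covered by a deposited peak of any strength against distance from the site centre in kb, 1 line per library of stimulated CH12F3; the left panel, titled both, is the shared class. NIPBL rises to 36.4% and 29.4% at the centre of cohesin-only sites, and Rad21 replicate 3 (mid blue) dips to 11.9% at the centre of loader-only sites, where replicate 1 reaches 32.6%.

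Loader-only sites lay closer to cohesin-only sites than the sites of 1 NIPBL library did. The median edge-to-edge distance was 20147 bp for 2294 loader-only and 62486 bp for 32813 sites of 1 NIPBL library. Of loader-only sites 29.3% lay within 10 kb of a cohesin-only site, of the latter 14.0%, and of the span 11.2%. Loader-only sites were spaced at a median of 107418 bp. Cohesin-only sites had a loader-only site within 10 kb in 4.44% of cases, against 1.75% of the span. In the area ranking the 2 kinds of NIPBL site were alike in this respect, at 28556 and 30482 bp, and loader-only sites were 26851 bp apart.

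In a fit across 10 kb bins, NIPBL coverage was higher in 3506 and Rad21 coverage in 12622 of 23570 bins covered in at least 2 libraries, or 14.9% and 53.6% of bins tested (limma, Benjamini-Hochberg adjusted p under 0.05). A bin could enter through its high group alone, so these counts largely follow from the filter and are read as a description: of 2926 bins covered by both NIPBL libraries and no Rad21 library 2896 were called, and of 11206 bins covered by all 4 Rad21 libraries and no NIPBL library 11130. Among the 835 bins covered in all 6 libraries, NIPBL was higher in 314 and Rad21 in 86. With area-ranked peaks the shares were 27.5% and 32.7% of 28459 bins. Without NIPBL replicate 1 or 2 the NIPBL-higher count was 692 or 835, whereas the Rad21-higher count stayed between 12612 and 13223 over the 6 libraries left out. With 1 NIPBL library left, a bin covered by NIPBL alone cannot pass the filter, so this fall follows in part from the filter.

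The largest fitted differences in favour of NIPBL included neighbouring bins on chromosome 6. The bin from 47700001 was covered to 75.5% and 71.1% by NIPBL top peaks and to 0% by Rad21 in all 4 libraries, a fitted log2 difference of coverage per Mb of 6.88. The bins from 47690001 (71.7% and 61.4%) and 47610001 (55.2% and 62.8%) were covered by NIPBL in the same way, with Rad21 at 0% throughout. These bins were picked for their difference and entered through NIPBL alone, and a difference against libraries at 0 depends on the pseudocount, so no p is given. Under the area ranking the differences in the 3 bins were 1.96, 0.36 and 2.54 and none passed the test (limma adjusted p = 0.303, 0.534 and 0.0808). With all deposited peaks they turned to -1.18, -1.43 and -0.67. For cohesin, the largest difference was at chromosome 1 from 85160001, where Rad21 covered 67.4%, 37.3%, 56.1% and 35.1% and NIPBL 0% (fitted difference -5.71). That 0% holds for top peaks only. At the cohesin-only site from 85157676 to 85166744, deposited NIPBL peaks reached 8.03 and 6.40-fold, against 8.21 to 9.23-fold in Rad21. The bin from 19980001 on chromosome 8 was covered to 36.0%, 24.8%, 31.4% and 47.8%, and that from 24620001 on chromosome 1 to 30.2%, 30.1%, 30.2% and 30.1%, again with NIPBL at 0%. The bins from 85160001 and 19980001 each lost their call under 1 alternative setting.

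In the immunoglobulin heavy chain region, the locus that class switching cuts, 40 bins of 10 kb on chromosome 12 were read. They run from 114300001 in mm9, and which bin holds which constant gene was not worked out. Cohesin top peaks formed a cluster there. The bin from 114450001 was covered to 27.0%, 21.1%, 19.9% and 12.8% by Rad21 and to 0% by NIPBL. The next bin, from 114460001, was covered in all 6 libraries: 19.0% and 11.7% by NIPBL, and 19.7%, 17.0%, 20.8% and 10.9% by Rad21. In it a Rad21 replicate 1 peak of 31.9-fold at 114460133 to 114461660 enclosed a NIPBL replicate 1 peak of 11.1-fold at 114460376 to 114461595. The NIPBL replicate 2 top peaks of the bin, at 114464980 to 114465265 and 114465953 to 114466834, overlapped no Rad21 top peak, and its peak at 114460355 to 114461695 (6.31-fold) was in the area-ranked list only. Loader peaks without cohesin top peaks lay in the bin from 114490001, covered to 9.24% and 14.1% by NIPBL and to 0% by Rad21. Its peaks, at 114491789 to 114492712 (12.3-fold) and 114491526 to 114492935 (7.70-fold), overlapped between both NIPBL libraries. The bins from 114340001 and 114380001 held Rad21 peaks of all 4 libraries, at 2.32% to 3.42% and 2.61% to 3.65%, and no NIPBL top peak. None of these differences passed the exact permutation test over libraries (adjusted p = 0.233 or more). With area-ranked peaks all NIPBL values lay above Rad21 in 12 of 15 covered bins and below it in 1, that from 114450001 (exact permutation test, adjusted p = 0.0769 or more). NIPBL then covered 19.5% and 17.8% of the bin from 114380001, against 2.61% to 3.65% for Rad21. It covered 13.2% and 0% of that from 114340001. With all deposited peaks NIPBL coverage was above Rad21 in 33 of 38 covered bins, and in the bin from 114450001 the groups overlapped, at 34.98% and 25.04% against 17.5% to 27.0%.

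**Figure D4:**
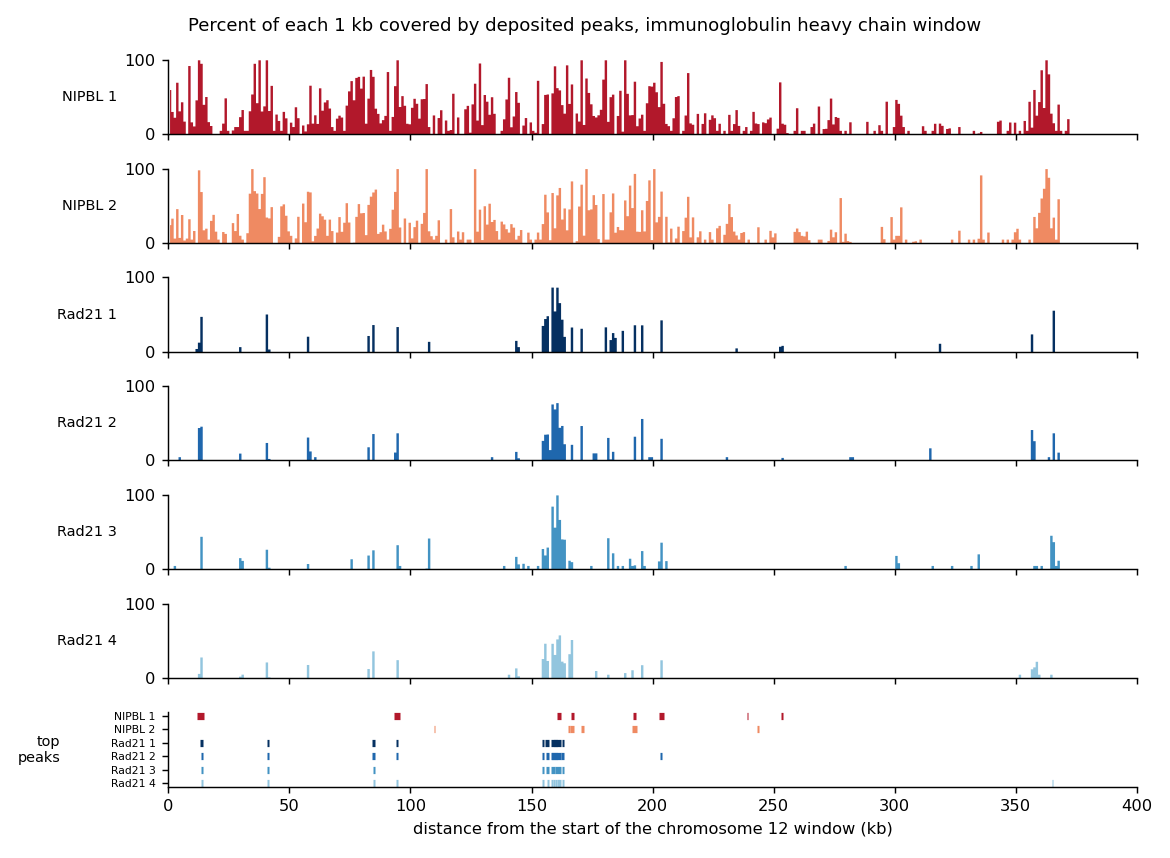
Coverage (%) of each 1 kb by deposited peaks along the 400 kb chromosome 12 window, 1 row per library, with the top peaks as bars in the bottom row; the horizontal axis is the distance in kb from the start of the window. Rad21 coverage gathers at about 155 to 163 kb in all 4 libraries, while NIPBL peaks are also found over much of the rest of the window.

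The site classes were then read in 20 libraries that did not define them. Cohesin-only sites had a Rad21 top peak in 94.5 ± 0.403% (SD, n = 3) in unstimulated CH12F3, 89.0 ± 0.344% in the stimulated i3CBEs cells, 77.1 ± 5.29% in stimulated spleen and 68.1 ± 4.09% in unstimulated spleen. Shared sites had one in 96.1 ± 0.496%, 92.5 ± 1.17%, 84.8 ± 4.76% and 86.8 ± 2.84%. The share was higher at shared sites in 12 of 12 Rad21 libraries (means 90.1% and 82.2%; exact two-sided sign-flip test over libraries, p = 0.000488, the smallest possible, adjusted p = 0.00163 over 10 tests). The 20 libraries are replicates within groups and were read on the same sites, so they are not independent units. Shared sites were the wider class. In NIPBL libraries the order was the other way: 85.4% of shared and 88.7% of loader-only sites had a NIPBL top peak, a difference of -3.30 points that was above 0 in 1 of 8 libraries (exact sign-flip p = 0.0469, adjusted p = 0.0521) and of -4.99 points with area-ranked peaks (adjusted p = 0.0195, exact, above 0 in 1 of 8). For Rad21 and area-ranked peaks the difference was 4.62 points, in 8 of 12 libraries (exact p = 0.114).

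Loader-only sites were found again by the loader in other cells. They had a NIPBL top peak in 97.3% and 70.3% of sites in the unstimulated CH12F3 libraries, in 91.5 ± 0.0503% (n = 3) in stimulated spleen and in 89.3 ± 2.65% in unstimulated spleen. Sites in 1 NIPBL library alone had one in 3.01% to 8.44% (means 88.7% and 6.63%, higher in 8 of 8; exact sign-flip p = 0.00781, adjusted p = 0.0112). These classes were set apart by recurrence between the NIPBL libraries of stimulated CH12F3. Their order in further NIPBL libraries was thus favoured by that choice, and the p is read as a description only. Sites in 1 NIPBL library alone had a median width of 51 bp and loader-only sites one of 1164 bp. With area-ranked peaks, where these widths were 960 and 1384 bp, the means were 83.02% of loader-only and 23.0% of single-library sites. Cell, agents and time differ together between stimulated spleen and stimulated CH12F3. Loader-only sites stayed low in Rad21 libraries, at 0.915 ± 0.262% in unstimulated CH12F3, 1.86 ± 0.458% in i3CBEs, 2.37 ± 0.981% in stimulated and 9.24 ± 4.99% in unstimulated spleen. Over the 12 Rad21 libraries the mean was 3.6%, and with area-ranked peaks 6.65%, up to 20.3% in unstimulated spleen. Most loader-only sites were thus found by NIPBL in the other cells, and few by Rad21. The class was chosen for having no Rad21 top peak in stimulated CH12F3, so its low Rad21 share was favoured by that choice too.

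**Figure D5:**
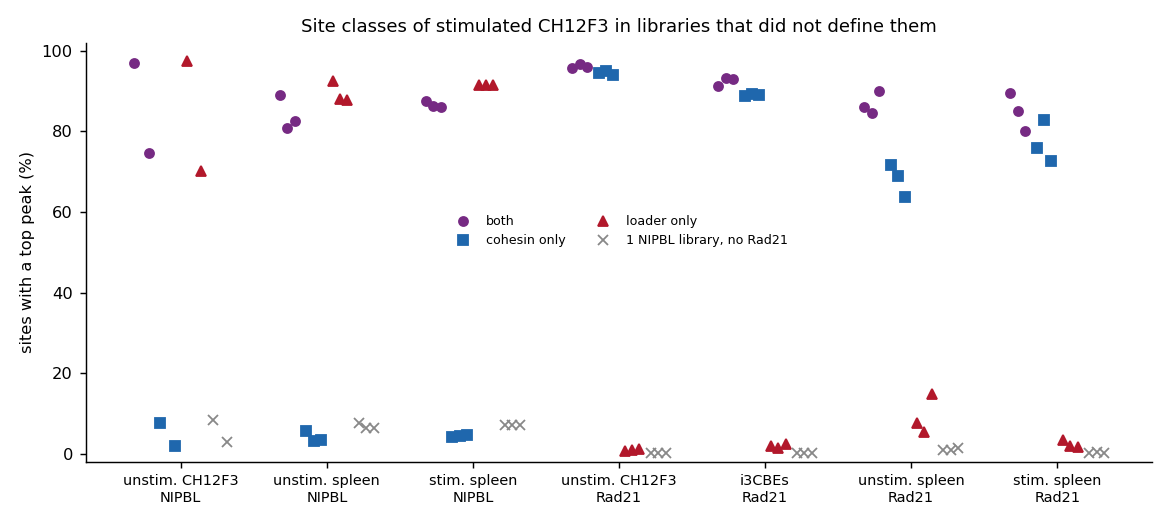
Share (%) of the sites of each class with a top peak in libraries that did not define the classes, 1 point per library, by cell, treatment and antibody. Loader-only sites lie between 70.3% and 97.3% in NIPBL libraries and at or below 14.9% in Rad21 libraries; cohesin-only sites lie between 63.6% and 94.9% in Rad21 libraries.

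The overlap of loader and cohesin was lower in stimulated CH12F3 than in the closest groups with top peaks. Rad21 top peaks were overlapped by NIPBL in 8.15%, 8.54% and 8.58% in unstimulated CH12F3 and in 9.24%, 8.96% and 7.25% in stimulated spleen, against 4.45% to 4.98% in stimulated CH12F3 (exact permutation test, p = 0.0286 for each, the smallest possible, adjusted p = 0.114 over 16 tests). The Rad21 libraries of a group share their NIPBL libraries, so these values are not independent, and NIPBL overlapped by Rad21 was 12.3% and 4.63% in the 2 unstimulated libraries. In area-ranked lists they were 16.3 ± 2.25%, 18.5 ± 1.22% and 17.1 ± 1.32%, and the groups overlapped (exact p = 0.257 and 0.571). A difference between the groups was therefore not shown.

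Between stimulated and unstimulated CH12F3, the NIPBL to Rad21 difference changed in 644 bins upward (2.06% of 31289) and 914 downward (2.92%) in an interaction test (limma). A bin needed coverage in 2 of the 11 libraries and could enter through its high group alone, so these counts are read as a description. The bins named for it here and for spleen were picked for large differences, and values of 0 in some groups make these depend on the pseudocount. Their adjusted p values are therefore read as a description too. At chromosome 13 from 55570001, NIPBL covered 0% and 0% with stimulation and 32.6% and 25.3% without. Rad21 covered 9.73%, 7.19%, 6.94% and 11.7% of it with and 7.09%, 7.56% and 7.68% without. The fitted difference was -5.25 with a standard error of 0.57 (adjusted p = 0.00148, limma). At chromosome 9 from 63600001 NIPBL went from 32.7% and 18.1% to 0% with Rad21 at 0% in all but Rad21 replicate 4 (2.53%). Bins in the other direction were less stable. That from 56770001 on chromosome 9 was covered by NIPBL to 19.5% and 14.2% with and to 16.3% and 0% without stimulation, and that from 79120001 on chromosome 10 to 18.9% and 8.20% against 0%. Not 1 of these 4 bins kept its call with area-ranked peaks (limma adjusted p = 0.899 to 1), where the counts were 614 and 731. Upward counts ranged from 169 to 984 when 1 of the 11 libraries was left out, and moved by more than 1.5 times for each library but stimulated NIPBL replicate 1 (580) and unstimulated NIPBL replicate 2 (950). Without these 2, taken out in turn, the downward counts were 1514 and 1428.

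Against stimulated spleen, the NIPBL to Rad21 difference was higher in 3063 (8.27% of 37059) and lower in 4825 bins (13.0%) in stimulated CH12F3 (limma). Here too a bin could enter through its high group alone, so these counts are read as a description. The bin with the largest upward difference was the heavy chain bin from 114490001. NIPBL covered 9.24% and 14.1% of it in CH12F3 and 0% in 3 splenic libraries. Rad21 covered 0% in 4 CH12F3 libraries and 4.60%, 16.7% and 0% in spleen. The fitted difference was 6.43 with a standard error of 1.09 (adjusted p = 0.00133, limma). This call held with area-ranked peaks (4.55, adjusted p = 0.0362, limma) and not with all deposited peaks (0.22, adjusted p = 0.86, limma). At chromosome 14 from 47500001 NIPBL covered 35.3% and 16.9% in CH12F3 and 0% in spleen with Rad21 at 3.41% to 10.7% in both. At chromosome 8 from 19980001 NIPBL was absent from CH12F3 and covered 43.7%, 53.2% and 80.4% in spleen, and at chromosome 1 from 85250001 Rad21 covered 95.3% to 100% in CH12F3 and 2.26% or less in spleen. The last 3 lost their calls with area-ranked peaks (limma adjusted p = 0.577, 0.738 and 0.918).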

How the data were processed

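Per the submitters' processing notes, Bowtie2, MACS2 and the mm9 build were used for the ChIP-seq reads. For their versions and settings, the sources used here give none. The authors deposited 1 broadPeak list per library. In the lists as deposited, each peak carries the authors' score (the -log10 q times 10), fold enrichment (a ratio to control), -log10 p and -log10 q. Per the file headers (peak names), NIPBL replicate 2 and the 4 Rad21 lists name the same control, whereas NIPBL replicate 1 names none. The 5 input samples were not analysed here.

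Peaks on 21 main chromosomes were ranked by -log10 p and 20000 kept per library. Bins of 10 kb were scored as covered bp per Mb of the library's covered length, as log2(value + 10), and compared with limma 3.58.1 under R 4.3.3, with a trend of variance on mean, where 2 or more libraries covered them, at an adjusted p under 0.05; the fit was tested on simulated data. Other tests were exact permutation or sign-flip tests over libraries (Python 3.11.15). Sites are top peaks merged where they overlap by 1 bp. Bins named are drawn, per direction, from the 10 of largest difference that were called and whose groups do not overlap; sites named are, per class, those of the highest mean fold percentile and the widest among 5, and bins of the heavy chain region; the 23 sites of high fold and the dip in Rad21 replicate 3 were picked with their values in view. No 2 libraries shared over 0.725% of peak starts. Alternatives changed the number of peaks, the ranking, width, overlap, merging, bin size, pseudocount, filter and libraries. Members, lists and tests were chosen with earlier results of these data known. Sequence and gene annotation of sites were not analysed, since no mm9 genome was used here.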

Additional observations from a re-analysis of the deposited data

Results flagged for a closer look

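The interaction tests between groups flagged 644 bins with a higher and 914 with a lower NIPBL to Rad21 difference in stimulated than in unstimulated CH12F3 cells, and 3063 higher and 4825 lower against stimulated spleen (limma). The filter let bins enter through their high group alone. Of the bins with the largest differences, those on chromosome 9 from 56770001 (5.62) and chromosome 10 from 79120001 (5.31) were higher than in unstimulated cells, and those on chromosome 9 from 63600001 (-5.26) and chromosome 13 from 55570001 (-5.25) lower, as log2 differences. Against stimulated spleen they were those on chromosome 12 from 114490001 (6.43), chromosome 14 from 47500001 (5.76), chromosome 8 from 19980001 (-8.78) and chromosome 1 from 85250001 (-6.21).

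Of 42 sets of 4 Rad21 values examined, 8 had a library that stood apart from the other 3. For normally spread values the rule flags about 1 in 20 sets. It always flags a set in which 1 library alone has coverage, so that rate does not hold for such sets. In its full list Rad21 replicate 4 had the highest share of peaks on chromosome X, 3.29%. In the heavy chain region, replicate 4 was lowest in the bin from 114310001 (2.83% covered), replicate 3 lowest in that from 114380001 (2.61%), replicate 2 alone covered that from 114500001 (2.98%) and replicate 4 alone that from 114660001 (0.51%). In bins named for the comparison with unstimulated cells, replicate 4 alone had Rad21 coverage: 1.92% at chromosome 9 from 56770001, 1.66% at chromosome 10 from 79120001 and 2.53% at chromosome 9 from 63600001.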

How the results depend on the processing

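With area-ranked peaks the difference NIPBL minus Rad21 turned to 574.75 bp in median width, 11.6 Mb in covered length and -21048 bp in spacing, and with peaks of 200 bp or more to 99.25 bp, 4.73 Mb and -10905 bp. NIPBL peaks overlapped by Rad21 were 16.3% (area), 10.6% (200 bp or more), 3.5% and 6.72% (10000 and 40000 peaks), 2.63% (-log10 q of 5 or more), 3.37% (5 Mb per library) and 7.16% (within 1 kb). Rad21 peaks overlapped by NIPBL were 16.3%, 10.5%, 3.47%, 6.86%, 27.0%, 4.31% and 7.15% in that order, 34.4% with all deposited peaks, 4.18% ranked by fold and 4.30% where 50% of the smaller peak had to overlap. The median distance from NIPBL was 11242, 16372, 68661, 19637, 33998 and 70010 bp (area, 200 bp, 10000, 40000, q, 5 Mb), 6817 bp with all peaks and 41771 bp by fold; from Rad21 it was 18070, 20810, 59550, 14166, 1258, 46929, 188.5 and 30972 bp.

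Shared sites numbered 2032, 1159, 156, 1204, 3603 and 179 under these settings and 30345 with all peaks. Loader-only sites numbered 8566 (area), 6006 (200 bp), 24105 (q) and 252731 (all). Cohesin-only sites numbered 8528, 25680 and 7920 with 10000 peaks, 40000 peaks and 5 Mb. Leaving out a library gave 433 to 992 shared and 2313 to 18884 loader-only sites.

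NIPBL-higher bins numbered 1948, 6519, 91387, 74576, 7838 and 6489 (10000, 40000, all, q, area, 200 bp), 632 where 3 libraries had to cover a bin and 692 to 3392 without 1 library. Rad21-higher bins numbered 6268 (10000), 5619 (5 Mb) and 7743 (50 kb bins). Against unstimulated cells the counts up and down were 110 and 516 (10000), 122 and 64 (all), and 169 to 984 and 696 to 1514 without 1 library. With the replicate block they were 49 and 191. Same-numbered libraries of the 2 antibodies did not deviate together (correlations from -0.00750 to 0.0156). The deviations of 2 NIPBL libraries mirror each other, so this check cannot settle whether the numbers pair the libraries. Against spleen the counts were 1932 up (10000), 3 and 3 (all), 1238 up (unscaled percent), 3096 down (area) and 3173 down (200 bp).

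Of 261 alternatives for 14 named bins 206 kept the call, 47 lost it and 8 turned: with all peaks the chromosome 6 bins gave -1.18, -1.43 and -0.67, chromosome 9 from 63600001 gave 0.38 (area 0.047) and chromosome 14 from 47500001 gave -1.22 (area -0.72), and chromosome 1 from 85250001 gave 0.15 (area). Scaling by covered length lowers NIPBL values with all peaks by construction. The percentile difference of Rad21 peaks turned to -7.61 (40000) and -21.9 (area). The higher share of shared sites in other Rad21 libraries, 4.62 points, was not past the threshold with area-ranked peaks, nor was the lower share of shared than loader-only sites in NIPBL libraries, -0.72 points, with 40000 peaks. Heavy chain bins with NIPBL higher numbered 0, 3, 33 and 12 (10000, 40000, all, area) and 1 to 6 without 1 library; those with Rad21 higher 0 (all) and 1 (area). Other causes were not tested. Without sites of 20-fold or more in all libraries, an alternative chosen after seeing the data, 397 shared sites were left.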
